A study of Homo sapiens with 8 samples.

Results

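The data compared a vector carrying CTBP2 with an empty vector (EV) in the cells of MM.1S, an established human myeloma line. The whole experiment held 8 libraries, 2 for each of 2 myeloma lines (MM.1S and NCI-H929) and 2 vectors, made from total RNA 72 hours after lentiviral transduction. The libraries described here are the 4 of 8 chosen by their levels of 2 genes, CCND2 above 10 FPKM and FGFR3 below 1 FPKM. FPKM counts fragments relative to transcript length and library size. CCND2, a D-type cyclin gene, and FGFR3, a receptor tyrosine kinase gene, mark the lines, so their values describe how the libraries were chosen and carry no test.

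The labels and the expression disagree for 1 of these 4 libraries. They are labelled MM.1S EV replicate 1, MM.1S EV replicate 2, MM.1S CTBP2 replicate 1 and NCI-H929 CTBP2 replicate 2. CCND2 was 94.6, 115.4, 46.7 and 60.7 FPKM in these libraries in that order, and FGFR3 was 0.0442, 0.0570, 0.0468 and 0.0399 FPKM. In the other 4, which include the library labelled MM.1S CTBP2 replicate 2, CCND2 was at most 0.0633 FPKM and FGFR3 at least 13.6 FPKM. Those 4 are called NCI-H929-expressing below. MAF, a transcription factor gene, was 143 to 257 FPKM in the 4 MM.1S-expressing libraries and 18.3 to 30.6 FPKM in the others, and the integrin gene ITGB7 was 3475 to 5386 against 1241 to 1578 FPKM. Across 12583 genes NCI-H929 CTBP2 replicate 2 had a Pearson correlation of log2 values of 0.985 with MM.1S CTBP2 replicate 1, close to the 0.986 between the MM.1S EV libraries. NCI-H929 CTBP2 replicate 2 is called the library with the NCI-H929 label below, and results are given with and without it. Per-library values below follow the order EV replicate 1, EV replicate 2, MM.1S CTBP2 replicate 1 and the library with the NCI-H929 label.

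**Figure D1:**
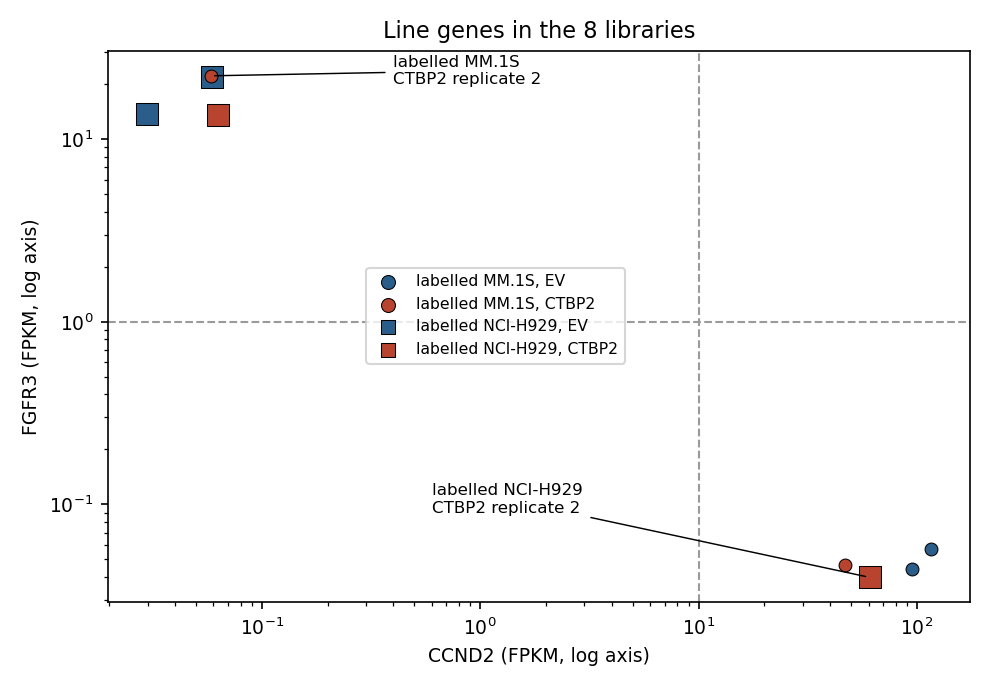
Levels of CCND2 (horizontal) and FGFR3 (vertical) in FPKM on log axes, 1 point per library, circles for libraries labelled MM.1S, squares for those labelled NCI-H929, blue for EV and red for CTBP2. Dashed lines mark 10 FPKM of CCND2 and 1 FPKM of FGFR3, and the libraries labelled CTBP2 replicate 2 of both lines lie with the other line.

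CTBP2 encodes a transcriptional corepressor. C-terminal binding proteins do not bind DNA themselves but are brought to genes by DNA-bound factors such as ZEB1 and the KLF family, and they carry histone deacetylases, histone methyltransferases and the demethylase LSD1. In epithelial cells they are known for repressing junction genes, and their binding of NADH ties them to the state of metabolism. Myeloma is a cancer of plasma cells, whose identity and survival depend on IRF4, and MYC drives growth and ribosome production in it.

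The EV libraries held 547097 and 616688 FPKM in all and the CTBP2 libraries less, 497600 and 517156. Genes at 1 FPKM or more numbered 10875 to 11430 in these 4 libraries. In each of them the largest value was that of MIR6723, annotated as a microRNA gene, with 15 to 16.3% of all FPKM. FPKM is relative to length, and which transcripts its fragments came from was not tested. The plasma cell surface gene SDC1 was 271 to 345 FPKM. Summed levels of marker genes of other cells were low: 7 T cell genes summed to 0.644 to 1.55 FPKM in the EV libraries and 2.96 to 5.57 in the CTBP2 libraries (CD3D at 0 in all 4), 9 monocyte genes to 12.4 to 13.2 and 16.5 to 27.2 (S100A8 and MARCO at 0), 10 fibroblast genes to 1.11 to 1.31 and 1.09 to 1.56 (THY1 at 0), and 8 genes of kidney epithelial packaging cells to 11.7 to 12.4 and 14.6 to 16.8. Of the monocyte list, CD68 and S100A9 alone reached 1 FPKM in any of the 4 libraries. CD3E was the one T cell gene to do so.

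The gene carried by the vector checks the vector labels. CTBP2 was 0.213 and 0.201 FPKM in the EV libraries and 2145 and 1621 FPKM in the CTBP2 libraries. The means were 0.207 ± 0.00867 and 1883 ± 371 FPKM (SD, n = 2 each), a 9113-fold difference, and the groups did not overlap. Its paralog CTBP1 was 54.0, 60.2, 61.1 and 64.1 FPKM, for which limma gave a log2 fold change of 0.13 with an SE of 0.15 and an adjusted p of 0.565. Of 24 tested genes for partners of CtBP and members of its complex, ZEB1 alone passed the test (4.17%). Of all tested genes 6.85% rose. The median log2 fold change of the 24 was 0.10. With equal totals 2 of the 24 rose, against 11.8% of all tested genes. ZEB1, a zinc-finger repressor that recruits CtBP, was 3.21 and 3.59 FPKM with EV and 6.77 and 6.02 with CTBP2, with no overlap (log2 fold change 0.75, SE 0.15, adjusted p = 0.0257, and 0.82 without the library with the NCI-H929 label). ZEB1 did not pass without MM.1S CTBP2 replicate 1 or without either EV library.

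Over the 11407 genes with at least 1 FPKM in 2 of the 4 libraries, 1475 passed limma's test at an adjusted p of 0.05, which is 12.9% of those tested. Of these, 781 (6.85%) were higher and 694 (6.08%) lower with CTBP2. A rise of at least 1 on the log2 scale was seen for 263 and a fall of at least 1 for 187. The scale is log2(FPKM + 1), which understates the change of low genes. The median log2 fold change over all tested genes was -0.017. Without regard to a test, both CTBP2 libraries were higher than both EV libraries for 31.0% of tested genes and lower for 33.2%. These shares are the background for every count of members that did not overlap. At an unadjusted p of 0.05, 3865 of the 11407 genes passed in either direction, the background for every count at that threshold.

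The count of calls depended on the libraries and on the genes tested. Of the 100 named genes called, 100 still passed without the NCI-H929-labelled library, 80 without MM.1S CTBP2 replicate 1, 64 and 53 without EV replicates 1 and 2, and 26 with the filter over 8 libraries. With the NCI-H929-labelled library left out it was 2910 (25.5%), 1328 higher (11.6%) and 1582 lower (13.9%), and 1401 of the 1475 were called there too with the same sign, 95% of the smaller list and 48.1% of the larger. With 1 CTBP2 library, as also without MM.1S CTBP2 replicate 1, limma took the spread wholly from other genes of like level. P-values of these fits are not printed, and passing in them, here or below, adds no support to the count of calls. It was 893 (7.83%) without MM.1S CTBP2 replicate 1, 429 (3.76%) without EV replicate 1 and 301 (2.64%) without EV replicate 2. With the filter taken over all 8 libraries (12583 genes) 130 were called (1.03%), 123 of them among the 1475, and with no filter 9 of 20020 (0.045%), 4 higher (0.02%) and 5 lower (0.025%). A filter leaves the log2 fold change of each gene as it was, so no direction could turn in either of those fits. With the 4 libraries fitted beside the other 4, 874 (7.66%) were called, 557 higher and 317 lower. Scaling to equal totals moved the all-gene median to 0.146 and the calls to 1788 (15.7%), 1348 higher (11.8%) and 440 lower (3.86%). Quantile normalization, which gives all 4 libraries the same distribution, called 837 higher (7.34%) and 750 lower (6.57%), and median-of-ratios scaling 723 higher (6.34%) and 878 lower (7.7%). Of the tested genes, 331 reached the filter through the CTBP2 group alone (167 called) and 79 through the EV group alone (31 called). Those genes had to differ to be tested, and they are named as such below. Of the named genes called, these were, beside CTBP2, UBD, MILR1, CEACAM1, IFIT3, HIST1H3E, KLF5, KLF4, NR4A1, EPCAM and ITGAM among the rises and HRASLS2, TERT, POU2F2 and HIST2H2AC among the falls.

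**Figure D2:**
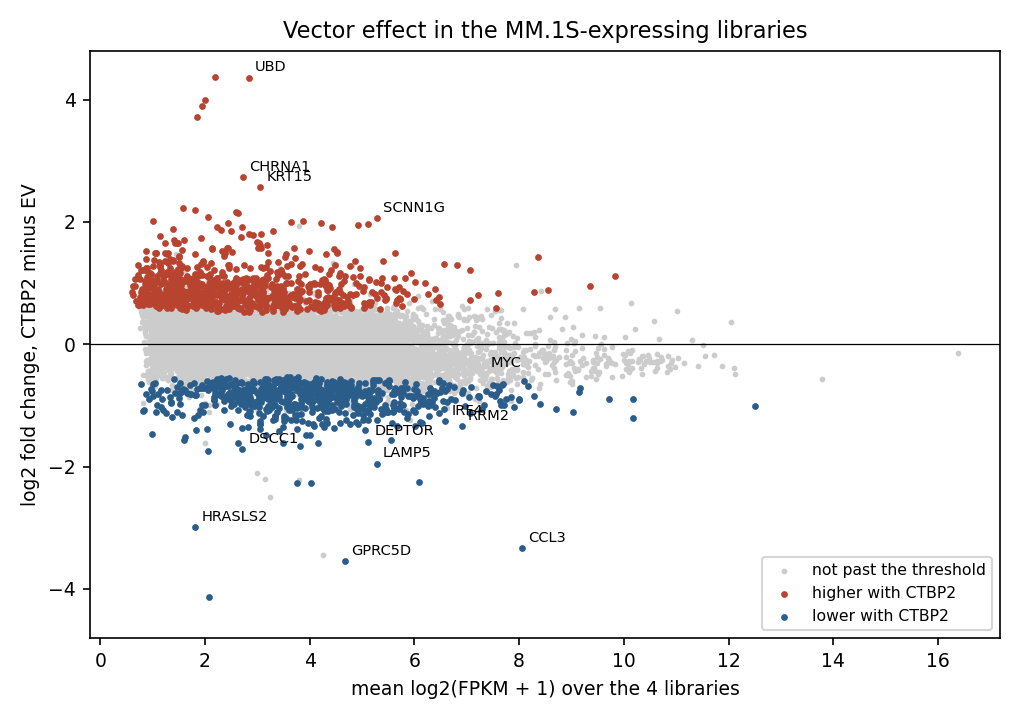
Log2 fold change of CTBP2 minus EV (vertical) against the mean log2(FPKM + 1) over the 4 MM.1S-expressing libraries (horizontal), 1 point per tested gene, red for the 781 higher and blue for the 694 lower with CTBP2 at an adjusted p of 0.05. CTBP2 and 6 microRNA or small nucleolar RNA genes lie outside the axis.

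CTBP2 itself left out, the largest rise by the naming rule was that of UBD, which encodes the ubiquitin-like protein FAT10, an interferon-inducible tag for degradation. UBD was 0.821, 0.361, 48.6 and 19.9 FPKM (log2 fold change 4.36, SE 0.37, adjusted p = 0.00331), and it was tested through the CTBP2 libraries alone. CHRNA1, the alpha subunit of the muscle acetylcholine receptor, was 1.17, 2.03, 16.5 and 15.5 FPKM (2.73, SE 0.19, adjusted p = 0.00124). KRT15, an epithelial keratin, was 1.64, 3.46, 21.3 and 17.5 FPKM (2.57, SE 0.25, adjusted p = 0.00475). By the naming rule every CTBP2 library exceeded every EV library in these 3 genes. UBD differed most between the CTBP2 libraries. SCNN1G, the gamma subunit of the epithelial sodium channel, was already expressed with EV, at 14.1 and 23.2 FPKM, and was 72.8 and 85.1 FPKM with CTBP2 (2.06, SE 0.24, adjusted p = 0.00738). BMF, a BH3-only gene that promotes apoptosis, was 16.1, 17.04, 74.8 and 60.4 FPKM (1.96, SE 0.16, adjusted p = 0.00331). Both showed groups wide apart against the spread within them.

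ALOX5AP, needed for leukotriene synthesis, was 4.73, 5.87, 26.9 and 21.7 FPKM (2.0, SE 0.17, adjusted p = 0.00331). LY86, which encodes MD-1, the partner of the receptor CD180, was 2.93, 1.09, 17.8 and 7.77 FPKM (2.16, SE 0.40, adjusted p = 0.0237). Monocytes also express both, and the sum of 9 monocyte markers was 12.4 to 13.2 FPKM with EV and 16.5 to 27.2 with CTBP2. The larger part of that sum was CD68, a gene of lysosomes in many cells, at 12.005, 11.5, 21.9 and 13.5 FPKM. S100A9, a calcium-binding protein gene of myeloid cells, was 0.835, 0.440, 4.52 and 2.25 FPKM and passed the test through the CTBP2 libraries alone (1.38, adjusted p = 0.0252, and 1.76 without the library with the NCI-H929 label). S100A8 and MARCO were at 0, FCGR3A was at most 0.0254, LYZ at most 0.230 and CD14 at most 0.454 FPKM. MILR1, an inhibitory receptor of mast cells, was 0.497, 0.259, 8.65 and 3.30 FPKM, and the adhesion gene CEACAM1 was 0.765, 0.491, 9.34 and 4.40 FPKM (2.23 and 2.20), both tested through the CTBP2 libraries alone. The histone gene HIST1H2BD, the sphingolipid synthesis gene SPTLC3, the selenium carrier gene SEPP1 and FRMD3, a FERM domain gene, rose by 2.15, 2.08, 2.01 and 1.99. When the library with the NCI-H929 label was left out the log2 fold changes were 4.98 for UBD, 2.77 for CHRNA1, 2.70 for KRT15, 2.81 for MILR1, 2.67 for CEACAM1, 2.71 for LY86, 2.63 for HIST1H2BD and 2.32 for SPTLC3. They were 1.95 for SCNN1G, 2.35 for SEPP1, 2.15 for ALOX5AP, 2.0 for FRMD3 and 2.11 for BMF.

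By the naming rule, on the log2(FPKM + 1) scale, the largest fall was that of GPRC5D, an orphan receptor of the plasma cell surface that is a target of myeloma therapies. GPRC5D was 104.9 and 69.8 FPKM with EV and 6.20 and 6.69 FPKM with CTBP2 (log2 fold change -3.54, SE 0.21, adjusted p = 0.000554). The chemokine gene CCL3 (MIP-1 alpha) was 766 and 927 FPKM with EV and 63.1 and 108.6 FPKM with CTBP2 (-3.33, SE 0.26, adjusted p = 0.00232). By the naming rule neither gene overlapped between vectors. CCL4 (MIP-1 beta) was 7.08, 6.15, 0.776 and 1.91 FPKM (-1.74, SE 0.24, adjusted p = 0.0125). CCL3L1 (34.5, 23.8, 5.94 and 4.47 FPKM) and CCL3L3 (118.6, 184.6, 24.0 and 38.3 FPKM) are near-identical copies of CCL3, so their values are uncertain. CCR2, a receptor of other chemokines, was 11.3, 8.59, 3.18 and 1.97 FPKM (-1.62, SE 0.21, adjusted p = 0.0108).

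HRASLS2, a phospholipid-metabolizing enzyme gene, was 10.3 and 7.58 FPKM with EV and 0.312 and 0.177 with CTBP2 (-2.99, SE 0.18, adjusted p = 0.000632). It reached the filter through the EV libraries alone. As a ratio of mean FPKM its fall was larger than that of GPRC5D, 36.6-fold against 13.6-fold. HBD and HEMGN are genes of red cell precursors: the globin gene HBD was 35.1, 34.0, 5.25 and 7.87 FPKM (-2.26) and HEMGN 19.4, 17.7, 5.06 and 5.75 FPKM (-1.61). The EV libraries of both agreed closely with each other and lay far above the CTBP2 libraries. LAMP5, a lysosome-associated membrane protein gene, was 99.5, 57.3, 19.8 and 17.7 FPKM (-1.95), and DEPTOR, an inhibitor of mTOR that many myelomas express highly, was 68.4, 51.3, 20.1 and 17.9 FPKM (-1.59). DSCC1 and NTHL1, of DNA replication and base excision repair, fell by 1.72 and 1.66, and the retinoic acid hydroxylase gene CYP26A1 fell by 1.62 with a wide spread between the CTBP2 libraries (5.66 and 14.4 FPKM). Without the library with the NCI-H929 label the log2 fold changes were -3.59 for GPRC5D, -3.72 for CCL3, -2.91 for HRASLS2, -2.10 for CCL3L1, -2.51 for HBD, -2.57 for CCL3L3, -1.88 for LAMP5 and -2.10 for CCL4. They were -1.97 for DSCC1, -1.93 for NTHL1, -1.38 for CCR2, -2.23 for CYP26A1, -1.69 for HEMGN and -1.51 for DEPTOR.

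Of these 13 rises and 14 falls, LY86 and CYP26A1 did not pass without EV replicate 2. With the filter over 8 libraries 5 of the rises (UBD, CHRNA1, SPTLC3, ALOX5AP and BMF) and 6 of the falls (GPRC5D, CCL3, HRASLS2, CCL3L1, HBD and HEMGN) still passed. CCL3, CCL3L3 and CCL4 did not pass with all 8 libraries in the fit.

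**Figure D3:**
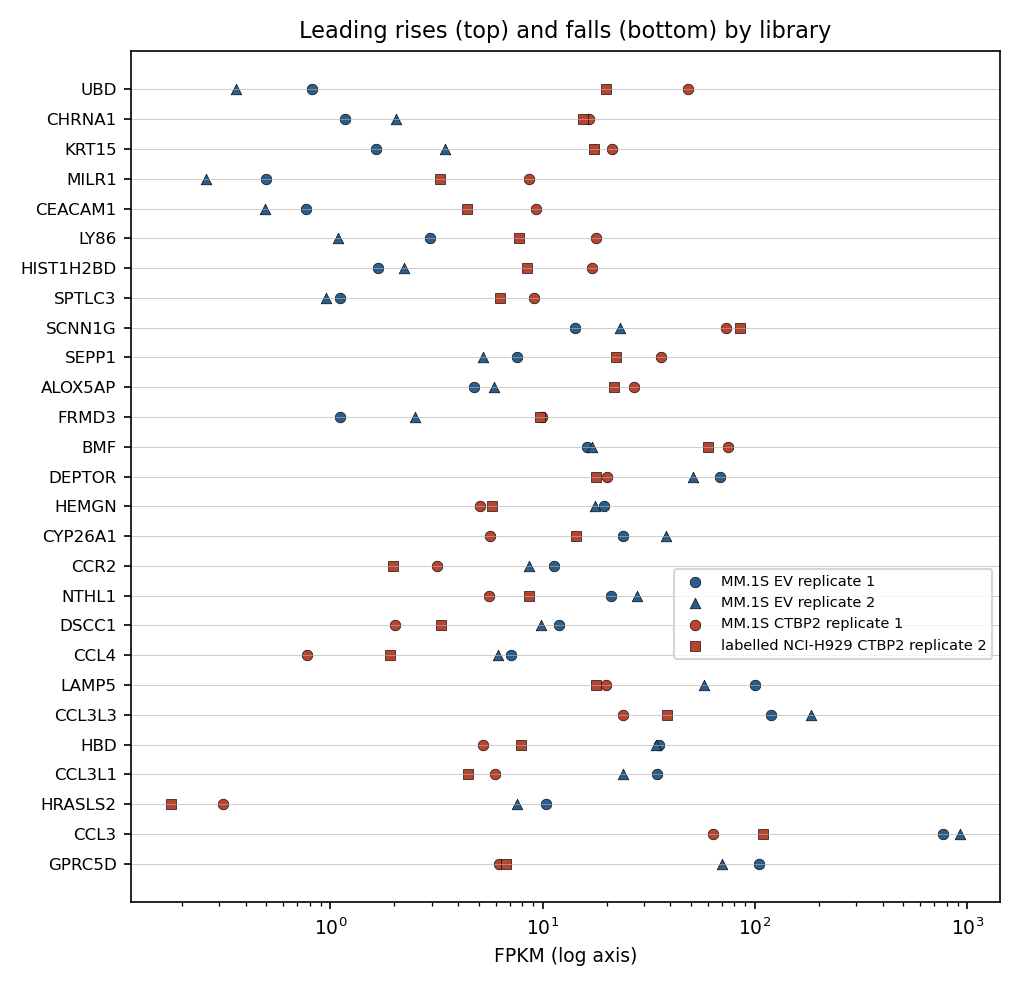
FPKM on a log axis of 13 leading rises (top) and 14 leading falls (bottom), 1 symbol per library, blue for EV and red for CTBP2, with the square for the library with the NCI-H929 label. By the naming rule the blue and red symbols of each gene do not overlap.

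Most genes of DNA replication and the G1/S transition fell. All 52 on the list were tested, 39 fell (75%, against 6.08% of all tested genes) and none rose (51 lower and 0 higher at an unadjusted p of 0.05), with a median log2 fold change of -1.03. RRM2, the small subunit of ribonucleotide reductase, was 194, 186, 61.2 and 90.04 FPKM (-1.34, SE 0.21, adjusted p = 0.0153). TYMS (thymidylate synthase) was 86.7, 88.2, 31.3 and 44.2 FPKM (-1.21), and DUT (dUTPase) was 66.2, 68.8, 30.7 and 36.1 FPKM (-1.0). In all 52 genes both CTBP2 libraries were lower than both EV libraries (background 33.2%), and MM.1S CTBP2 replicate 1 was the lower of the pair in these 3. With the NCI-H929-labelled library left out, 51 of 52 fell with a median of -1.40. The count was 23 without MM.1S CTBP2 replicate 1 (background 3.1%), 9 without EV replicate 1 (1.24%), 2 without EV replicate 2 (0.842%), 7 with all 8 libraries in the fit (2.78%) and 0 with the filter over 8 libraries (0.326%).

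Genes of mitosis and G2/M moved the same way. Of 45 tested, 37 fell (82.2%) and none rose (44 lower and 0 higher at an unadjusted p of 0.05), the median was -0.82, and all 45 were lower in both CTBP2 libraries. MAD2L1, of the spindle checkpoint, was 73.4, 74.2, 26.5 and 32.8 FPKM (-1.29, SE 0.16, adjusted p = 0.0102). SPC24, of the kinetochore, CCNA2 (cyclin A2) and CKS1B, a CDK-binding subunit, fell by 1.11, 1.02 and 1.06, and the proliferation marker MKI67 was 72.9, 56.3, 25.6 and 33.6 FPKM (-1.10, SE 0.20, adjusted p = 0.0223). When the library with the NCI-H929 label was left out, 43 fell with a median of -0.99. The count was 19 without MM.1S CTBP2 replicate 1, 5 and 6 without EV replicates 1 and 2, 3 with all 8 libraries in the fit, and 1 with the filter over 8 libraries, and 24 with equal totals (background 3.86%). Of 17 genes for D cyclins, their kinases, inhibitors and the RB family, 6 fell (35.3%, against 6.08% of all tested genes) and none rose. The falls were E2F8, CCND3, CDK6, CCND1, CDK2 and E2F7. CCND3 (cyclin D3) was 25.7, 29.3, 9.72 and 15.8 FPKM (-1.09, SE 0.23, adjusted p = 0.0285, and -1.41 without that library), and 8 fell without it. At an unadjusted p of 0.05, 8 were lower and 2 higher. The falls numbered 4 without MM.1S CTBP2 replicate 1 and 1 without each EV library in turn, and 3 with equal totals, where 1 rose. In bulk RNA a smaller share of cycling cells and less of these transcripts per cell cannot be told apart.

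E2F factors drive G1/S genes through sites near their starts, so the promoters of the listed genes were searched. RefSeq promoter sequences (GRCh38.p14, 250 bases before to 50 after each gene's start) matched 45 of the 52 genes. TTTCGCGC or TTTGGCGC, on either strand, was in 26.7% of them against 2.25% of the promoters of all tested genes that matched (9202 of 11407). Within the list, 7 of 12 genes with the motif fell and 28 of 33 without it. The promoters below, of the replication factor GINS1 (chr20:25407423-25407722, plus strand) and of E2F1 (chr20:33686336-33686635, minus strand), are the motif-holding list members with the smallest p, with the motif on either strand in capitals, beginning at positions 6 and -20 from the start as position 1.
GINS1: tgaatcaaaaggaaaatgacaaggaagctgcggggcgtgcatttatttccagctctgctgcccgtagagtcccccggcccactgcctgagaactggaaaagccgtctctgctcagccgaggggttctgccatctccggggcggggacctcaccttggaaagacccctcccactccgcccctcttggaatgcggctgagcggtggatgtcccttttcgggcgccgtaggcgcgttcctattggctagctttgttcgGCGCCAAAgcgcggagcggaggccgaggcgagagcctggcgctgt
E2F1: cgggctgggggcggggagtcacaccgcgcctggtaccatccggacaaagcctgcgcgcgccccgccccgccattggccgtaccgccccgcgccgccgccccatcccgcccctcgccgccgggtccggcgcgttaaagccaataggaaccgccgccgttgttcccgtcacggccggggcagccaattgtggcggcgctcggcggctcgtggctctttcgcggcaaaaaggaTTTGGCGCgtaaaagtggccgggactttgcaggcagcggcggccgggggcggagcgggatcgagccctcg
GINS1 was 14.5, 12.1, 5.06 and 7.38 FPKM and E2F1 43.3, 54.9, 15.7 and 26.5 FPKM, with log2 fold changes of -1.0 and -1.22 (-1.24 and -1.58 without the library with the NCI-H929 label).

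MYC itself did not pass the test. It was 189.9 and 188.0 FPKM with EV and 133.9 and 138.7 FPKM with CTBP2, groups that did not overlap (log2 fold change -0.47, SE 0.15, adjusted p = 0.0756, and -0.49 without the library with the NCI-H929 label). Of 59 tested genes on the list of MYC targets and ribosome biogenesis, 19 fell (32.2%) and none rose (51 lower and 0 higher at an unadjusted p of 0.05), with a median of -0.68, and all 59 had a negative log2 fold change. MRTO4, a ribosome assembly factor, was 39.5, 44.9, 17.2 and 24.2 FPKM (-1.01, SE 0.19, adjusted p = 0.0251). HSPD1, the mitochondrial chaperonin, was 436, 508, 208 and 272 FPKM (-0.98, SE 0.19, adjusted p = 0.0252). TERT, the telomerase subunit, was 1.62, 2.64, 0.265 and 0.615 FPKM (-1.11, tested through the EV libraries alone), and GNL3 (nucleostemin) fell by 0.80. Both CTBP2 libraries were lower than both EV libraries in 56 of the 59. Without the library with the NCI-H929 label, 52 fell with a median of -0.90. The count was 3 without MM.1S CTBP2 replicate 1, 1 and 0 without EV replicates 1 and 2, 5 with all 8 libraries in the fit, 0 with the filter over 8 libraries and 12 with equal totals. Among 11 tested factors of the MYC network, MXD4, a MAX partner that opposes MYC, was 15.03, 14.9, 39.9 and 30.4 FPKM (1.17, SE 0.17, adjusted p = 0.0144), and MXD3, of the same family, was 25.7, 25.5, 16.3 and 16.8 FPKM (-0.60, SE 0.14, adjusted p = 0.0379). Without that library they stood at 1.36 and -0.62. MXD4 did not pass without EV replicate 2, nor MXD3 without any of the other 3 libraries in turn. With equal totals 3 of the 11 rose and none fell.

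MYC with MAX binds the E-box CACGTG, which reads the same on both strands. It was in 42.3% of the 52 matched promoters of that list against 10.8% of those of all tested genes. Within the list, 8 of 22 with the E-box and 10 of 30 without it fell. The promoters of MRTO4 (chr1:19251555-19251854, plus strand) and HSPD1 (chr2:197500225-197500524, minus strand), the E-box holders with the smallest p on the list, carry it in capitals at positions 15 and -88.
MRTO4: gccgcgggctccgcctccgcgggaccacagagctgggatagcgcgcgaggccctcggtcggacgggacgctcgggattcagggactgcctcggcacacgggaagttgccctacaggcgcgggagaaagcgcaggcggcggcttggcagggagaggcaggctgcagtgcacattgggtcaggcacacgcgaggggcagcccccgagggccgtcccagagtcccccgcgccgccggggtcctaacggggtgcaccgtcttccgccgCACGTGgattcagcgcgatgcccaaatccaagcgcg
HSPD1: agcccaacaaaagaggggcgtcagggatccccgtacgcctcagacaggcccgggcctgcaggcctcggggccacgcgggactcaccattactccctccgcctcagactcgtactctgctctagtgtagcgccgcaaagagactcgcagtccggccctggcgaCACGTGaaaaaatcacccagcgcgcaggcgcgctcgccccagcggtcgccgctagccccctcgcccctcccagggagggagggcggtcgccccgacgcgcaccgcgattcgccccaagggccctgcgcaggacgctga
HSPD1 shares its promoter region with HSPE1, which lies head to head with it and was 233, 270, 120.6 and 165 FPKM (-0.82, SE 0.20, adjusted p = 0.04, and -1.05 without the library with the NCI-H929 label).

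Of the regulators of plasma cells, IRF4 fell. IRF4 was 154 and 143 FPKM with EV and 59.7 and 63.2 FPKM with CTBP2 (log2 fold change -1.26, SE 0.15, adjusted p = 0.00819, and -1.30 without the library with the NCI-H929 label). It passed in 14 of 16 alternative settings, and its groups lay far apart against the spread within each. PRDM1 (BLIMP1), which extinguishes the B cell program, was 61.5, 52.8, 41.6 and 40.4 FPKM (-0.47, SE 0.15, adjusted p = 0.0848), with no overlap. XBP1, the secretory regulator, was 503, 603, 421 and 466 FPKM (-0.31, adjusted p = 0.233). IKZF1 and IKZF3, the targets of lenalidomide, had log2 fold changes of 0.03 (adjusted p = 0.898) and 0.30 (adjusted p = 0.226), and IKZF1 overlapped between vectors. Of 27 tested genes of plasma cell and myeloma identity 9 fell (33.3%) and none rose (14 lower and 2 higher at an unadjusted p of 0.05), with a median of -0.40. Beside GPRC5D, IRF4 and LAMP5 these were POU2F2, FKBP11, TNFRSF17, DERL3, SLAMF7 and TNFRSF13B. TNFRSF17 (BCMA), the receptor for BAFF and APRIL, was 270, 299, 139 and 144 FPKM (-1.0, SE 0.15, adjusted p = 0.0153), and SLAMF7, the target of elotuzumab, was 243, 252, 125 and 150 FPKM (-0.85, SE 0.16, adjusted p = 0.0251). POU2F2 (OCT2) was 2.58, 2.08, 0.548 and 0.608 FPKM (-1.07) and was tested through the EV libraries alone. Without that library 9 fell and 2 rose, with log2 fold changes of -1.03 for TNFRSF17, -0.97 for SLAMF7 and -1.10 for POU2F2. The count of falls was 8 without MM.1S CTBP2 replicate 1, 6 and 4 without EV replicates 1 and 2 and 3 with the filter over 8 libraries. With equal totals 9 fell and 2 rose.

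Interferon-stimulated genes rose or stayed below the threshold. Of 62 on the list 47 were tested, 17 rose (36.2%, against 6.85% of all tested genes) and none fell (23 higher and 4 lower at an unadjusted p of 0.05), with a median of 0.38. IFI44 was 0.898, 1.29, 5.95 and 5.95 FPKM (1.74, SE 0.16, adjusted p = 0.00391), and IFIT3, which binds viral RNA with its relatives, was 0.488, 0.90, 5.90 and 3.38 FPKM (1.71, SE 0.25, adjusted p = 0.0137). IFIT3 and 3 others of the 17 (DHX58, XAF1 and PARP9) were tested through the CTBP2 libraries alone. EPSTI1 was 3.85, 4.11, 9.11 and 8.19 FPKM (0.95), and PARP12, an antiviral ADP-ribosyltransferase, was 1.91, 2.27, 5.85 and 4.94 FPKM (1.05). None of the 4 overlapped, which for IFIT3 was fixed by the filter. The transcription factors of the pathway were among the 17: STAT2 was 35.6, 30.0, 63.5 and 49.2 FPKM (0.75), IRF7 was 8.91, 10.1, 20.8 and 15.9 FPKM (0.87) and IRF9 was 5.11, 4.30, 11.99 and 7.45 FPKM (0.88). With the NCI-H929-labelled library left out, 20 rose and 3 fell with a median of 0.41, and the log2 fold changes were 1.74 for IFI44, 2.04 for IFIT3, 1.02 for EPSTI1, 1.15 for PARP12, 0.94 for STAT2, 1.05 for IRF7 and 1.19 for IRF9. The count of rises was 11 without MM.1S CTBP2 replicate 1 (background 4.73%), 9 and 6 without EV replicates 1 and 2 (2.52% and 1.8%), 13 with all 8 libraries in the fit (4.88%) and 1 with the filter over 8 libraries (0.707%).

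The element GAAA, any 2 bases, GAAA, the core of sites for interferon-activated factors, was searched on both strands. It was in 56.4% of 39 matched promoters of the list against 2.88% of those of all tested genes. Within the list, 10 of 22 with the element and 5 of 17 without it rose. The promoters of IFI44 (chr1:78649539-78649838) and IFIT3 (chr10:89327747-89328046), both on the plus strand, carry it in capitals, read here on the opposite strand, from position -18 in IFI44 and from position -156 for the first of 2 in IFIT3.
IFI44: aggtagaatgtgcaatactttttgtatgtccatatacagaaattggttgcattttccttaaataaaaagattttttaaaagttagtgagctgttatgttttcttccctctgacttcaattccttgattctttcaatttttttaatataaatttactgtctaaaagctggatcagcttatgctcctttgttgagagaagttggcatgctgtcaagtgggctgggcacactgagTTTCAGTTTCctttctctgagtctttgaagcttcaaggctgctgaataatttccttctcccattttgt
IFIT3: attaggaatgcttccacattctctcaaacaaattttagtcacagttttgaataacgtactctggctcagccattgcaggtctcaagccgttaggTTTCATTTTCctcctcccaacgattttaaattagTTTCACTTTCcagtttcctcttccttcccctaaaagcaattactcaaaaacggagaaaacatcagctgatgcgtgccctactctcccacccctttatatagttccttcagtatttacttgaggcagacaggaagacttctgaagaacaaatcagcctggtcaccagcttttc
Both genes had the smallest p among list members with the element.

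Some replication-dependent histone genes rose. Of 64 on the list 21 were tested, 8 rose (38.1%) and 1 fell, with a median of 0.63. HIST1H2BK was 9.58, 10.5, 49.0 and 33.5 FPKM (1.91, SE 0.20, adjusted p = 0.00611), the linker histone gene HIST1H1C was 18.7, 21.1, 48.4 and 34.7 FPKM (1.01), and HIST1H2AC was 3.62, 2.55, 18.1 and 9.196 FPKM (1.78). HIST1H3E was 0.391, 0.412, 2.63 and 2.27 FPKM (1.30) and, like HIST1H3D and HIST2H2BE among the 8, was tested through the CTBP2 libraries alone. HIST2H2AC went the other way, at 2.85, 3.01, 0.678 and 0.765 FPKM (-1.19), tested through the EV libraries alone. When the library with the NCI-H929 label was left out, 14 rose and 1 fell, and the log2 fold changes were 2.18, 1.24, 2.24, 1.37 and -1.23. The rises numbered 7 without MM.1S CTBP2 replicate 1, 5 and 4 without EV replicates 1 and 2, 1 with the filter over 8 libraries and 5 with quantile normalization. Histone genes are near-identical to each other and short, so single values are uncertain. Most of the 64 did not reach the filter, so these counts do not describe the list as a whole.

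Many genes that restrain PI3K, mTOR or proliferation rose. Of 30 tested 12 rose (40.0%) and 1 fell (DEPTOR), with a median of 0.62. TSC22D3 (GILZ), a target of FOXO factors and glucocorticoids, was 13.7, 15.2, 66.4 and 51.5 FPKM (1.95, SE 0.17, adjusted p = 0.00391), and TSC22D1 was 1.03, 1.63, 4.73 and 4.45 FPKM (1.27). DDIT4 (REDD1), a stress-induced inhibitor of mTORC1, was 9.78, 16.3, 39.3 and 36.3 FPKM (1.5, SE 0.23, adjusted p = 0.0153), and PIK3IP1, a negative regulator of PI3K, was 6.85, 6.31, 30.0 and 15.2 FPKM (1.57, SE 0.28, adjusted p = 0.0223). The groups did not overlap in any of these. PDCD4, an inhibitor of translation, was 16.7, 15.9, 45.6 and 29.01 FPKM (1.11), and FOXO4 was 4.58, 4.12, 10.3 and 7.31 FPKM (0.86). The other rises were YPEL5, YPEL3, BTG2, TOB1, INPP5D and CCNG2. Without the library with the NCI-H929 label, 17 rose and 1 fell, and the log2 fold changes were 2.13 for TSC22D3, 1.31 for TSC22D1, 1.56 for DDIT4, 2.03 for PIK3IP1, 1.43 for PDCD4 and 1.07 for FOXO4. The rises numbered 8 without MM.1S CTBP2 replicate 1, 5 and 3 without EV replicates 1 and 2, 5 with all 8 libraries in the fit and 1 with the filter over 8 libraries.

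Lysosome and autophagy genes rose in part. Of 51 tested 10 rose (19.6%) and 1 fell, with a median of 0.31, and 36 were higher in both CTBP2 libraries. The rises numbered 20 with equal totals (background 11.8%) and 15 with quantile normalization (7.34%). SQSTM1 (p62), the autophagy receptor, was 154, 257, 485 and 594 FPKM (1.43, SE 0.26, adjusted p = 0.0223). The lysosomal protease genes CTSS (14.7, 10.7, 46.6 and 30.2 FPKM), CTSL (6.16, 11.3, 22.7 and 29.2 FPKM) and TPP1 (34.1, 31.2, 71.2 and 68.8 FPKM) rose by 1.51, 1.52 and 1.08, and the cholesterol carrier gene NPC2 was 54.3, 66.2, 115.2 and 112.8 FPKM (0.91). GUSB (beta-glucuronidase) fell by 0.79. With the NCI-H929-labelled library left out, 12 rose and 2 fell, and SQSTM1, CTSS, CTSL, TPP1, NPC2 and GUSB stood at 1.28, 1.81, 1.34, 1.10, 0.93 and -0.96. The rises numbered 7 without MM.1S CTBP2 replicate 1, 3 without either EV library in turn and 1 with the filter over 8 libraries.

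Epithelial junction and polarity genes, a class that CtBP with ZEB factors is known to repress in other cells, rose in part. Of 45 on the list 24 were tested, 9 rose (37.5%) and none fell (13 higher and 0 lower at an unadjusted p of 0.05), with a median of 0.50. SPINT1, a membrane protease inhibitor, was 44.4, 35.5, 94.6 and 86.4 FPKM (1.17, SE 0.17, adjusted p = 0.0140). CGN (cingulin), of tight junctions, was 4.09, 4.75, 8.48 and 11.9 FPKM (1.03), and JUP (plakoglobin) was 16.03, 15.7, 27.1 and 28.2 FPKM (0.76). EPCAM was 0.217 and 0.0761 FPKM with EV and 1.17 and 1.27 FPKM with CTBP2 (0.96), tested through the CTBP2 libraries alone. CEACAM1, tested in the same way, SPINT2, MARVELD3 and LLGL2 were among the others that rose. When the library with the NCI-H929 label was left out, 10 rose and none fell, and the 4 log2 fold changes were 1.23, 0.81, 0.74 and 0.93. The rises numbered 8 without MM.1S CTBP2 replicate 1, 6 and 1 without EV replicates 1 and 2, and 1 with the filter over 8 libraries. Of 14 tested KLF and SP factors 3 rose (21.4%, against 6.85% of all tested genes) and none fell (5 higher and 1 lower at an unadjusted p of 0.05). KLF5 was 0.882, 0.507, 2.66 and 2.13 FPKM (1.01), KLF4 was 0.404, 0.489, 1.39 and 1.46 FPKM (0.75) and KLF6 was 18.9, 15.9, 31.6 and 27.4 FPKM (0.73). KLF5 and KLF4 were tested through the CTBP2 libraries alone. Without that library they stood at 1.12, 0.73 and 0.83, and 5 of the 14 rose. Of the 14, 1 rose without MM.1S CTBP2 replicate 1 or EV replicate 1 and 0 without EV replicate 2, and 5 with equal totals.

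Of genes of B cells, homing and adhesion few passed the test, in both directions. Of 17 tested B cell and MHC class II genes 3 rose (17.6%) and 1 fell (5.88%, against 6.08% of all tested genes), with 3 and 0 for equal totals and 3 and 2 for quantile normalization. SPI1 (PU.1) was 10.3, 10.0, 24.6 and 26.8 FPKM (1.26, SE 0.14, adjusted p = 0.00726), the costimulatory gene CD86 was 6.01, 5.21, 18.5 and 13.6 FPKM (1.35, SE 0.18, adjusted p = 0.0121), and HLA-DMB was 2.599, 1.87, 7.56 and 4.48 FPKM (1.09). CIITA, the activator of class II genes, was 3.46, 2.35, 1.24 and 0.971 FPKM (-0.88, SE 0.19, adjusted p = 0.0307). Of 26 tested homing and adhesion genes 3 rose (11.5%) and 4 fell (15.4%), with 5 and 2 for equal totals and 5 and 1 for quantile normalization. ITGAM was 0.170, 0.218, 4.14 and 2.21 FPKM (1.77, tested through the CTBP2 libraries alone), and CD48 was 256.1, 255, 161 and 162 FPKM (-0.66). S1PR2 rose by 0.63, and ITGA4 and CCR10 fell by 0.88 and 0.58. The monocyte marker sums given above moved with SPI1 and ITGAM, and their part in these values was not tested. Without the library with the NCI-H929 label the log2 fold changes were 1.20 for SPI1, 1.57 for CD86, 1.41 for HLA-DMB, -0.79 for CIITA, 2.10 for ITGAM and -0.67 for CD48. The B cell list then had 4 rises and 2 falls and the homing list 5 and 4. Without MM.1S CTBP2 replicate 1 they had 3 rises and 4 falls, and 3 and 2. Without EV replicate 1 they had 3 and 0, and 2 and 1, and without EV replicate 2 they had 2 and 2, and 3 and 2.

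Among NF-kB subunits and targets 2 of 33 rose and 2 fell (6.06% each, against 6.85% and 6.08% of all tested genes), with a median of 0.31. At an unadjusted p of 0.05, 10 were higher and 2 lower, and 19 were higher in both CTBP2 libraries (background 31.0%). With equal totals 12 rose (background 11.8%) and with quantile normalization 5 (7.34%), and 2 fell in each. BIRC3 (cIAP2) was 15.9, 18.6, 55.9 and 37.5 FPKM (1.36, SE 0.21, adjusted p = 0.0160), LTA (lymphotoxin alpha) was 2.44, 2.36, 4.77 and 4.68 FPKM (0.75), and the falls were CCL3 and CCL4. With the NCI-H929-labelled library left out, 9 rose and 2 fell, with BIRC3 at 1.64 and LTA at 0.76. Rises and falls numbered 5 and 2 without MM.1S CTBP2 replicate 1, 1 and 2 without EV replicate 1 and 3 and 2 without EV replicate 2. Of 18 immediate early and AP-1 genes 3 rose (16.7%) and 1 fell (5.56%), against 6.85% and 6.08% of all tested genes. BTG2 was 226, 234, 478 and 363 FPKM (0.85), DUSP1 was 4.70, 6.06, 11.6 and 8.98 FPKM (0.82), NR4A1 was 0.680, 0.535, 1.66 and 1.51 FPKM (0.69, tested through the CTBP2 libraries alone) and JUN was 13.5, 12.04, 7.80 and 8.32 FPKM (-0.60). They stood at 1.05, 0.99, 0.73 and -0.64 without that library, and no member of this list passed without MM.1S CTBP2 replicate 1 or without either EV library. With equal totals 5 rose and none fell. Of 14 BCL2 family genes BMF alone passed, a rise (7.14%, against 6.85% of all tested genes). Its log2 fold change ran from 1.80 to 2.11 with 1 library left out. With equal totals 2 of the 14 rose (background 11.8%). With quantile normalization 2 rose (background 7.34%) and 1 fell (background 6.57%). Of 29 p53 targets 4 rose (13.8%, against 6.85% of all tested genes) and none fell (5 higher and 1 lower at an unadjusted p of 0.05), with a median of 0.00. The tetraspanin gene CD82 was 48.6, 72.1, 142.9 and 153 FPKM (1.31), the death receptor gene FAS was 5.72, 7.07, 12.6 and 10.98 FPKM (0.79), and BTG2 and TP53I3 rose by 0.85 and 0.82. CD82, FAS and TP53I3 stood at 1.26, 0.88 and 1.05 without the library with the NCI-H929 label, and of the 29 targets 6 rose then, 3 without MM.1S CTBP2 replicate 1, and 0 and 1 without EV replicates 1 and 2.

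Some genes of protein folding, secretion and amino acid supply fell. Of 39 tested chaperone genes 8 fell (20.5%) and none rose, with a median of -0.52. HSP90AA1 was 197, 204, 98.9 and 122 FPKM (-0.86, SE 0.17, adjusted p = 0.0257), and the co-chaperone genes HSPH1 and FKBP4 fell by 0.72 and 0.84. Of 48 genes of ER secretion and the unfolded protein response 7 fell (14.6%) and none rose, with a median of -0.31. MANF, a stress-induced ER protein gene, was 100.2, 117.2, 47.7 and 59.6 FPKM (-1.01, SE 0.18, adjusted p = 0.0212), and SDF2L1, PDIA4 and PDIA6, all of ER folding, fell by 1.05, 0.75 and 0.75. Of 42 ATF4 and one-carbon genes 5 fell (11.9%) and 2 rose (4.76%), against 6.08% and 6.85% of all tested genes, with a median of -0.45. PYCR1, of proline synthesis, was 28.8, 41.1, 9.36 and 17.2 FPKM (-1.37), and MTHFD1L was 9.39, 11.8, 4.27 and 6.58 FPKM (-0.87). DDIT4 and VLDLR rose by 1.5 and 0.94. When the library with the NCI-H929 label was left out the falls numbered 23 for chaperones, 11 for ER genes and 23 for ATF4 genes, with 0, 2 and 2 rises, and HSP90AA1, MANF and PYCR1 stood at -1.01, -1.17 and -1.77. In the same order the falls numbered 1, 2 and 1 without MM.1S CTBP2 replicate 1, 0, 1 and 2 without EV replicate 1, and 0, 0 and 0 without EV replicate 2. At an unadjusted p of 0.05, chaperone genes were lower for 26 and higher for 0, and ER genes lower for 22 and higher for 2. With equal totals 5 chaperone genes fell, and 7 ER genes fell and 3 rose. With median-of-ratios scaling the falls were 12 for ER and 10 for ATF4 genes, and with quantile normalization 3 for ATF4 genes.

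Ribosomal protein and oxidative phosphorylation genes had no call among 79 and 75 tested. At an unadjusted p of 0.05, 17 and 7 were lower and 0 higher, against 3865 of all 11407 tested genes in either direction. Of the ribosomal protein genes 71 of 79 were lower in both CTBP2 libraries, with a median of -0.28, which was -0.09 with equal totals and -0.03 with quantile normalization. RPL41, a gene with processed copies elsewhere in the genome, was 5118, 5349, 3760 and 3742 FPKM (-0.48, adjusted p = 0.0753), and RPL23A was 1155, 1235, 800.4 and 863 FPKM (-0.52, adjusted p = 0.0654). The oxidative phosphorylation genes had a median of -0.20, which was -0.01 with equal totals and 0.04 with quantile normalization, where 2 rose. NDUFB6 (-0.61, adjusted p = 0.0753) and UQCRQ (-0.65, adjusted p = 0.0809) were the nearest to the threshold. Of 33 genes of cholesterol and fatty acid synthesis 3 fell (9.09%, against 6.08% of all tested genes) and none rose. At an unadjusted p of 0.05, 16 of the 33 were lower and 3 higher. FADS1, a fatty acid desaturase gene, was 8.44, 6.20, 2.599 and 3.88 FPKM (-0.98), and EBP and INSIG1 fell by 1.0 and 0.71. With equal totals 1 of the 33 fell (background 3.86%). Of 36 glycolysis and hypoxia genes 5 rose (13.9%) and 2 fell (5.56%), against 6.85% and 6.08% of all tested genes. The glucose transporter gene SLC2A3 was 2.46, 2.29, 6.59 and 6.29 FPKM (1.14, SE 0.14, adjusted p = 0.00899), the repressor gene BHLHE40 was 1.56, 2.87, 7.75 and 8.92 FPKM (1.57), and ANKRD37 was 12.2, 12.5, 3.91 and 4.36 FPKM (-1.38, SE 0.14, adjusted p = 0.00509). Without the library with the NCI-H929 label the medians were -0.22 for ribosomal protein, -0.34 for oxidative phosphorylation and -0.46 for cholesterol genes. The median over all tested genes was -0.023 there. The glycolysis list had a median of -0.19 then, with SLC2A3, BHLHE40 and ANKRD37 at 1.17, 1.48 and -1.44. The same list had 3 rises and 1 fall without MM.1S CTBP2 replicate 1, and 2 rises and 1 fall without either EV library. EBP and INSIG1 did not pass without any of the other 3 libraries in turn.

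**Figure D4:**
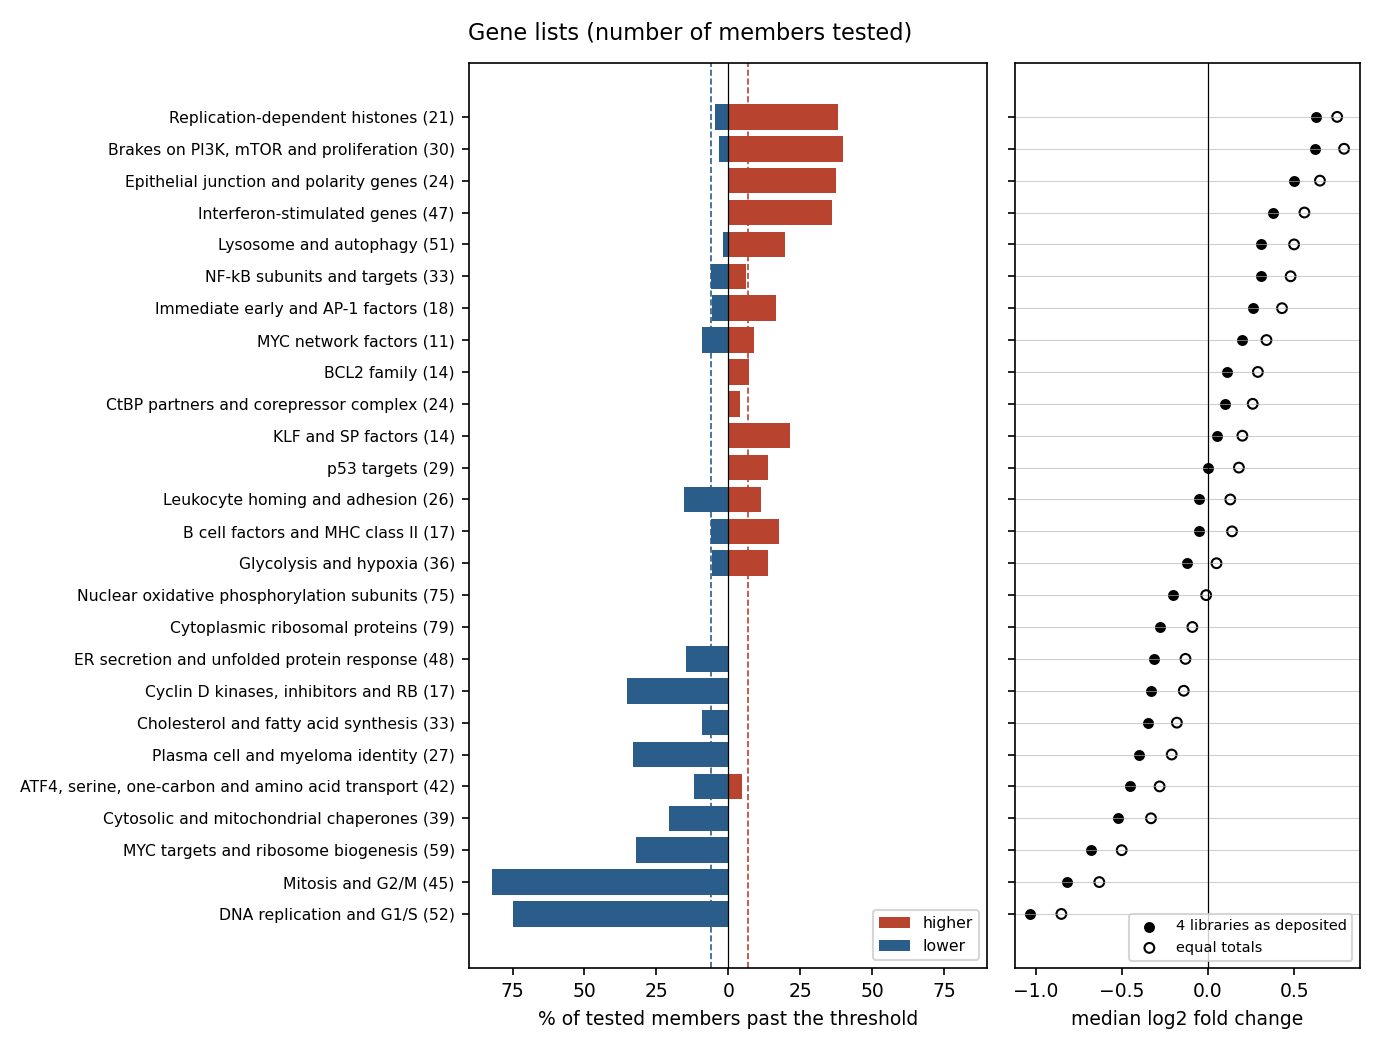
Left, the share of tested members of each of the 26 gene lists that passed the test, red to the right for higher and blue to the left for lower with CTBP2, with dashed lines at 6.85% and 6.08% of all tested genes. Right, the median log2 fold change of each list as deposited (filled) and with equal totals (open), from -1.03 for DNA replication and G1/S to 0.63 for replication-dependent histones.

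The vector effect was set against that in the NCI-H929-expressing libraries by an interaction test over all 8 libraries. The difference passed for 158 of 12583 genes (1.26%), 42 with the MM.1S effect more positive (0.334%) and 116 with it more negative (0.922%). Of the 1475 genes called in the MM.1S-expressing libraries, 53 were among the 158. Those 1475 were chosen by the effect in MM.1S-expressing libraries, which is part of the difference, so a raised share is partly built in. The sign was the same in both lines for 1360 of the 1475, and that share over all tested genes was not computed. IRF4 was 143 to 154 FPKM with EV here, and its log2 fold changes were -1.26 in MM.1S-expressing and -1.08 in NCI-H929-expressing libraries (difference adjusted p = 0.797). The count of differences was 6 to 418 when any 1 of the 8 libraries was left out, lowest without NCI-H929 EV replicate 1 and highest without NCI-H929 CTBP2 replicate 1. It was 8 and 15 without MM.1S EV replicates 1 and 2, 16 without MM.1S CTBP2 replicate 1, 12 without the library with the NCI-H929 label and 42 without NCI-H929 EV replicate 2. It was 130 without the replicate 2 library that carries the MM.1S CTBP2 label.

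Some leading genes of MM.1S-expressing libraries were among the 158. UBD had a log2 fold change of 4.36 here and 0.58 in NCI-H929-expressing libraries (difference adjusted p = 0.0165). KRT15 had 2.57 and 0.04 (adjusted p = 0.0177), CHRNA1 2.73 and 0.92 (adjusted p = 0.0362), SCNN1G 2.06 and 0.18 (adjusted p = 0.0362), FRMD3 1.99 and -0.01 (adjusted p = 0.0362), and SLC2A3 1.14 and 0.01 (adjusted p = 0.0347). The falls of HBD (-2.26 and 0.47, adjusted p = 0.0255), HEMGN (-1.61 and 0.08, adjusted p = 0.0165) and CCR2 (-1.62 and 0.05, adjusted p = 0.0362) differed as well. Several of these genes were near 0 in all NCI-H929-expressing libraries. The highest values there were 0.511 FPKM for UBD, 0.0555 for KRT15, 0.195 for SCNN1G and 0.297 for FRMD3. They were 0.0246 for SLC2A3, 0.578 for HEMGN and 0.0954 for CCR2. For these genes another response there and a gene hardly expressed there cannot be told apart. MYC fell less here, at -0.47 against -1.88 (adjusted p = 0.0362). The inflammatory caspase gene CASP1 was 20.9, 24.1, 31.6 and 31.5 FPKM here, a log2 fold change of 0.47 (adjusted p = 0.0764) against 3.39 in NCI-H929-expressing libraries, and its neighbour CARD16 had 0.46 against 3.10. GPRC5D had -3.54 and -0.92, a difference that did not pass (adjusted p = 0.0812). The median over G1/S genes was -1.03 here and -1.06 there, over G2/M genes -0.82 and -0.84, over MYC targets -0.68 and -1.35 and over interferon-stimulated genes 0.38 and 1.02. Of these 4 lists, members whose difference passed numbered 0 for G1/S, 0 for G2/M, 0 for MYC targets and 3 for interferon-stimulated genes, all 3 more negative in MM.1S-expressing libraries.

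**Figure D5:**
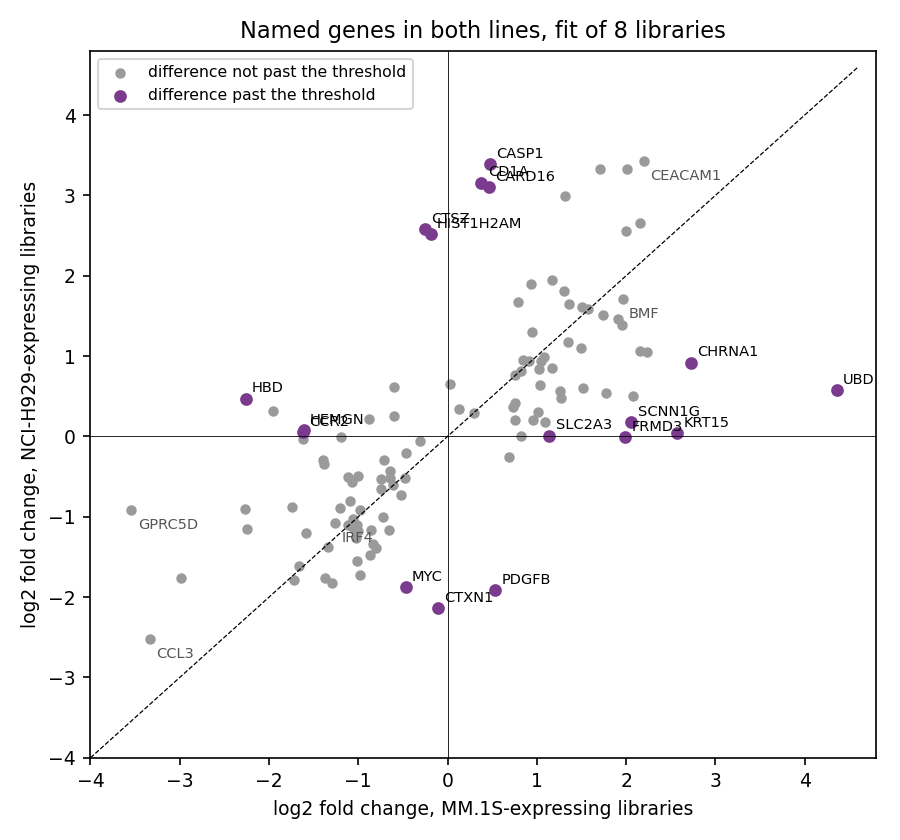
Log2 fold change of CTBP2 minus EV in the MM.1S-expressing libraries (horizontal) against that in the NCI-H929-expressing libraries (vertical) for the named genes other than CTBP2, in the fit of 8 libraries, with purple points where the difference passed. UBD, KRT15, FRMD3 and SCNN1G lie to the right near a vertical value of 0, and CASP1, CARD16 and CD1A lie high near a horizontal value of 0.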

How the data were processed

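The labels give total RNA from cultures 72 hours after lentiviral transduction, made into libraries with the TruSeq RNA Library Prep Kit, which does not mark strand. The submitters' processing notes list, with no order, the aligner STAR 2.6.0b-1, the read trimmer Trimmomatic 0.36.5, the counter HTSeq 0.9.1, the tester DESeq2 2.11.40.2, the quality report FastQC 0.11.7 and the build GRCh37 (hg19). The values are FPKM as deposited by the authors for 25906 genes; the unit was read from the name of the table, and the tool that made the FPKM is not given in the sources used here. Depth per library is unknown, so no counting error is given.

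From these, log2(FPKM + 1) was computed for genes with at least 1 FPKM in 2 of the 4 libraries. limma 3.58.1 in R 4.3.3 (a mean per vector, eBayes with trend, 2 residual degrees of freedom) gave two-sided p-values with Benjamini-Hochberg adjustment over all 11407 genes. An exact permutation test of 2 against 2 cannot go below p = 0.333, so none is given. The difference between lines used 8 libraries and 12583 genes. The labels call the replicates biological duplicates. In the fit of 4 libraries p-values rest on the spread between them, drawn towards that of other genes of like level. The prior degrees of freedom there were 5.12, more than the 2 residual ones. The code was tested on simulated data.

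The members, the 26 gene lists, the tests and the naming rule were chosen with earlier results of these data known. Named are XBP1, PRDM1, IRF4, MYC, both IKZF genes and both CTBP genes as listed in the text; the 14 largest rises and falls among called genes whose groups do not overlap and whose higher mean is at least 5 FPKM, without clone-style names, microRNA and small nucleolar RNA genes, immunoglobulin segments, line genes and CTBP2; per list the 4 called members of lowest p, or 2 members as values; and 6 differences between lines each way. A few genes that this rule picked, or that belong to a list, were left out of the text. Other list members given with values, MKI67, TNFRSF17, SLAMF7, STAT2, IRF7, IRF9, HIST1H1C, HIST1H2AC, PIK3IP1, PDCD4, FOXO4, SQSTM1, GUSB, JUP, DHX58, XAF1, PARP9, HIST1H3D, HIST2H2BE, S100A9, S1PR2, ITGA4, CCR10, HSPE1, GINS1 and E2F1, were picked after their values were seen. Promoter sequences are RefSeq's, GRCh38.p14, matched by gene. Alternatives were filters of 5 FPKM, over 8 libraries or none, a pseudocount of 0.1, median-of-ratios, quantile and equal-total scaling, no trend, all 8 libraries in the fit, the line as labelled, a replicate block and each library left out. Leaving out microRNA and small nucleolar RNA genes was added after seeing the data.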

Additional observations from a re-analysis of the deposited data

Results flagged for a closer look

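The vector effect differed between MM.1S-expressing and NCI-H929-expressing libraries, by the interaction test of limma, for 17 named genes, given as the MM.1S minus the NCI-H929 log2 fold change. It was more positive in MM.1S-expressing libraries for UBD (3.77), KRT15 (2.53), PDGFB (2.44), CTXN1 (2.03), FRMD3 (2.0), SCNN1G (1.87), CHRNA1 (1.81), MYC (1.41) and SLC2A3 (1.13). It was more negative for CASP1 (-2.92), CTSZ (-2.83), CD1A (-2.78), HBD (-2.73), HIST1H2AM (-2.71), CARD16 (-2.64), HEMGN (-1.69) and CCR2 (-1.68). Adjusted p-values ran from 0.00166 for CASP1 to 0.0362 for MYC, CHRNA1, SCNN1G, FRMD3 and CCR2. PDGFB, a growth factor gene, was 7.29, 8.42, 9.92 and 13.98 FPKM in the MM.1S-expressing libraries. CD1A was at 0 in both EV libraries and 0.437 and 0.183 FPKM in the CTBP2 libraries, and CTXN1 was under 1 FPKM in all 4. UBD, KRT15, FRMD3, SCNN1G, SLC2A3, HEMGN and CCR2 were under 1 FPKM in every NCI-H929-expressing library. The difference rests on both libraries whose label and expression disagree, each placed by its expression.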

How the results depend on the processing

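The 1475 calls became 874 with all 8 libraries in the fit, 130 with the filter over 8 libraries, 9 with no filter, 9 with the line as labelled and 301 to 2910 with 1 library left out (429, 301, 893 and 2910 without EV replicate 1, EV replicate 2, MM.1S CTBP2 replicate 1 and the library with the NCI-H929 label). limma's prior degrees of freedom were 5.12 as reported, 2.42 with the filter over 8 libraries and 2.11 with no filter. The 158 differences between lines became 67 with a pseudocount of 0.1, 62 with a filter of 5 FPKM and 6 to 418 with 1 library left out. IRF4 missed the threshold with no filter (-1.26, adjusted p = 0.0874) and with the line as labelled (-1.19, adjusted p = 0.247).

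Directions turned for CTBP1 (-0.021), XBP1 (0.219), SCNN1G (-1.028), CD82 (-0.186), LTA (-0.401), SLC2A3 (-0.275), KLF6 (-0.092) and SPINT1 (-0.819), and for the medians of plasma cell identity (0.049), BCL2 family (-0.327), NF-kB (-0.100) and epithelial genes (-0.061), all with the line as labelled. IKZF1 turned to -0.009 with median-of-ratios scaling and ran from -0.092 (without EV replicate 2) to 0.159 with 1 library left out, -0.010 without MM.1S CTBP2 replicate 1. The homing median (-0.05) turned to 0.128 with equal totals, 0.126 with quantile normalization and ran from -0.093 to 0.008 (without the library with the NCI-H929 label) with 1 library left out. The causes were not tested. Of the 100 named genes called, 74 missed the threshold with the filter over 8 libraries, 99 with no filter, and 0 with a pseudocount of 0.1, no trend or the microRNA and small nucleolar RNA genes left out.

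With a replicate block 5595 genes were called (2610 higher, 2985 lower) and 60 differences between lines, and MYC passed (-0.468, adjusted p = 0.0019), as did PRDM1, XBP1, IKZF3, RPL23A, RPL41, NDUFB6 and UQCRQ. The falls then numbered 34 of 79 for ribosomal protein and 30 of 75 for oxidative phosphorylation genes, and 2 of the latter rose. The deviations of same-numbered libraries correlated across 11407 genes (r = 0.506), but with 2 pairs and no shared source named in the labels the numbers were not taken as a pairing.

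With 2 libraries a group, unknown depth and 1 library of conflicting label, small changes cannot be told from the spread.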

Other observations

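The called genes were compared for transcript length and GC content, from the longest GENCODE transcript of each. The 781 rises had a median length of 3049 bases and the 694 falls 2577, against 3048 over all tested genes, and median GC contents of 49.8%, 49.3% and 48.6%. Shares over all called genes with and without a promoter motif are not given. RefSeq promoters matched 77.1% of the rises and 79.0% of the falls, too few for such a check. The counts by motif within lists above cover matched members alone. These were 86.5% of tested G1/S genes, 88.1% of MYC targets and 83.0% of interferon-stimulated genes.

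CD3E, a T cell marker gene that passed the test in the MM.1S-expressing libraries, was picked after its values were seen. It was 1.33, 0.527, 4.76 and 2.44 FPKM (log2 fold change 1.24, limma adjusted p = 0.039, and 1.61 without the library with the NCI-H929 label), while its partner CD3D was at 0 in all 4 libraries.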
